A study of Homo sapiens with 14 samples.

Results

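The sgRNAs against *CDK2*, *CDK5* and *CDK6*, 3 genes of the cyclin-dependent kinase family, were followed in 2 pooled base editor screens. They were chosen by ID, namely the gene symbol in front of the number, and came to 12 of the 9077 sgRNAs of the library, with 4 per gene (*CDK2*-1 to *CDK2*-4, *CDK5*-1 to *CDK5*-4 and *CDK6*-1 to *CDK6*-4). The same library holds 1000 non-targeting (NT) sgRNAs, which match no intended site, and sgRNAs against m6A sites, positions in RNA that carry a methylated adenosine. In the first screen, A549 cells (a human lung carcinoma line) carried FNLS-BE3, a cytosine base editor that turns C into T, and were sampled at day 0 (1 library) and at days 10, 20 and 30 of culture (2 libraries each). In the second, H1 human embryonic stem cells carried FNLS-ABE7.10(AW), an adenine base editor that turns A into G, and were taken through definitive endoderm differentiation. The cells with the least and the most CXCR4, a surface protein of endoderm, were then sorted in 3 independent screens, which gave 3 CXCR4- and 3 CXCR4+ libraries. All A549 libraries share the cytosine editor, and all sorted H1 libraries share the adenine editor and the differentiation, so that no control without an editor enters a comparison. An H1 library from before differentiation is not analysed here.

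Cyclin-dependent kinases act only when bound to a regulatory partner. CDK6, like its close relative CDK4, binds D-type cyclins in G1 phase and phosphorylates the retinoblastoma protein, which releases E2F transcription factors, and CDK2 with cyclin E and cyclin A carries cells into and through S phase. A549 cells are known to lack *CDKN2A*, whose product inhibits CDK4 and CDK6. CDK5 is the atypical member, which is activated by the non-cyclin proteins p35 and p39, is best known from neurons and is not needed for cell division.

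The sgRNAs named after a gene were designed to create premature stop codons with the cytosine editor. Such an editor can turn CAA, CAG and CGA codons into stop codons by a C-to-T change of the coding strand, and TGG codons by changes of the opposite strand. The main transcript of *CDK2* (ENSG00000123374, GRCh37 chromosome 12, 56360565 to 56366573, plus strand, 7 exons) has 298 codons up to the stop. Of these, 4 are CAA, 5 CAG, 4 CGA and 4 TGG, and 5 of these 17 lie with a target C at positions 4 to 8 of a protospacer of 20 bases next to an NGG motif, counted from the end far from NGG. *CDK5* (ENSG00000164885, chromosome 7, 150750902 to 150754984, minus strand, 12 exons) has 292 codons, of which 9 are CAG, 2 CGA and 3 TGG and none CAA, and 7 of these 14 lie in such a window. *CDK6* (ENSG00000105810, chromosome 7, 92234235 to 92465887, minus strand, 8 exons) has 326 codons with 4 CAA, 10 CAG, 3 CGA and 3 TGG, and 7 of these 20 lie in such a window. The count tables do not say which codon each sgRNA edits, and the guide sequences were not analysed here. The adenine editor of the H1 screen makes no new stop codon, because changing A to G, or T to C through the opposite strand, gives a stop codon only from another stop codon. The H1 values of the same sgRNAs are therefore those of guides whose design was for a different editor.

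The libraries were made from genomic DNA, and a value is the abundance of an sgRNA among the cells, not the expression of its target. Total reads lay between 14925937 and 16457222 in the 7 A549 libraries and between 8076271 and 11341078 in the 6 sorted H1 libraries. Values are the deposited normalized read counts, and a log2 fold change (LFC) is the difference of log2(count + 1) between libraries. Editing itself was not measured in these libraries, so it is not known here which share of the cells with an sgRNA carried an edit. Standard errors of counting cover counting error only, because reads copied by PCR and not tagged per molecule cannot be taken as independent. The 95% intervals come from limma and rest on the spread between libraries, which in A549 is pooled over all days.

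In the A549 screen, 3 of the 4 *CDK6* sgRNAs and 1 of the 4 *CDK2* sgRNAs stood between 0.465 and 0.539 of their day 0 abundance at day 30 (geometric mean of both libraries). The ratios were 0.465 for *CDK6*-1, 0.516 for *CDK6*-4, 0.539 for *CDK6*-2 and 0.474 for *CDK2*-3. The other 8 sgRNAs, among them all 4 of *CDK5*, had ratios from 0.685 to 1.11. No sgRNA of the 3 genes passed the test after correction over all 9077 sgRNAs, in which 1 sgRNA in all (0.0110%) passed at day 30 over day 0. At an unadjusted limma p under 0.05, the 4 sgRNAs of lowest ratio, 4 of the 12, were lower at day 30 than at day 0, against 5.65% of all sgRNAs and 5.6% of the NT sgRNAs. By the LFC threshold of the study, below -1, 2 of the 12 were depleted (*CDK6*-1 and *CDK2*-3), against 1.52% of all sgRNAs and 10 of 1000 NT sgRNAs. It was applied here to the mean LFC of both day 30 libraries, whereas the methods do not say how libraries were combined.

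*CDK6*-1 had a normalized count of 1521 at day 0, 1351 and 775 on day 10, 1071 and 696 on day 20 and 866.2 and 577 on day 30 (replicates 1 and 2). All 6 later libraries were below day 0, and replicate 2 was the lower one on each day. Its LFC over day 0 was -0.57 ± 0.57 at day 10, -0.82 ± 0.44 at day 20 and -1.10 ± 0.41 at day 30 (mean ± SD, n = 2). Its percentile among the NT sgRNAs was 0.2 in replicate 2 already at day 10, and 21.4 in replicate 1. The day 30 value had a 95% interval from -2.12 to -0.08 and an adjusted p of 0.354 (limma), and 6 of 1000 NT sgRNAs had a lower mean. The log2 ratio of replicate 2 to replicate 1 at day 10 was -0.80, or -12.2 standard errors of counting, and lay at percentile 0.18 of that ratio among all sgRNAs. Without day 30 replicate 2 the LFC of *CDK6*-1 was -0.81, and without day 30 replicate 1 it was -1.40.

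*CDK6*-4 had the smallest spread of these 4 sgRNAs at day 30. Its normalized count was 1749 at day 0, 1544 and 1380 on day 10, 1276 and 1082 on day 20 and 926.7 and 877.1 on day 30. The libraries of the 3 later days did not overlap, and each later day was below the one before. How many of all sgRNAs show this order was not counted. The LFC was -0.26 ± 0.11 at day 10, -0.57 ± 0.17 at day 20 and -0.96 ± 0.06 at day 30 (mean ± SD, n = 2). At day 30 the 95% interval ran from -1.53 to -0.38 with an adjusted p of 0.251 (limma), and 11 of 1000 NT sgRNAs were lower. A linear trend over day in all 7 libraries gave a change of -0.97 over the 30 days with an adjusted p of 0.0373 (limma), in which *CDK6*-4 was the 1 member that passed. With that trend 47 of all 9077 sgRNAs were lower and 105 higher, 16 of 1000 NT sgRNAs among them. The trend takes the 7 libraries as independent, although A549 libraries of the same replicate number deviated together over the days. Its adjusted p is therefore uncertain.

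*CDK6*-2 had a normalized count of 1295 at day 0, 1149 and 1014 on day 10, 759.5 and 1246 on day 20 and 641.9 and 759.3 on day 30. Both day 30 libraries were below every other library, that of replicate 2 only just, whereas the day 20 libraries lay on either side of those of day 10. The share of all sgRNAs with both day 30 libraries lowest was not counted. Its LFC was -0.26 ± 0.13, -0.41 ± 0.50 and -0.89 ± 0.17 at days 10, 20 and 30 (mean ± SD, n = 2). The day 30 value had a 95% interval from -1.70 to -0.08 and an adjusted p of 0.346 (limma), and 16 of 1000 NT sgRNAs were lower.

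*CDK6*-3 stood apart from the other *CDK6* sgRNAs. Its normalized count was 1494 at day 0, 1146 and 1330 on day 10, 1295 and 1412 on day 20 and 1191 and 1275 on day 30. It was below day 0 in all 6 libraries but was no lower at day 30 than at day 10, with an LFC of -0.28 ± 0.15 at day 10 and -0.28 ± 0.07 at day 30 (mean ± SD, n = 2). The 95% interval at day 30 ran from -0.83 to 0.27 (limma adjusted p = 0.656), and 217 of 1000 NT sgRNAs were lower. The 4 *CDK6* sgRNAs share a target gene and are not replicates of each other, and no test was run between them.

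*CDK2*-3 was the 1 *CDK2* sgRNA with a mean LFC below -1. Its normalized count was 1612 at day 0, 1096 and 1194 on day 10, 1191 and 1061 on day 20 and 823.6 and 708 on day 30. The values of days 10 and 20 overlapped, and both day 30 libraries were below them, an order whose share of all sgRNAs was not counted. Its LFC was -0.49 ± 0.09, -0.52 ± 0.12 and -1.08 ± 0.15 at days 10, 20 and 30 (mean ± SD, n = 2), with a 95% interval at day 30 from -1.69 to -0.47 and an adjusted p of 0.248 (limma). The NT percentile of *CDK2*-3 was 2.5 and 1.2 in the day 30 libraries, and 7 of 1000 NT sgRNAs had a lower mean.

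The remaining *CDK2* sgRNAs moved less. *CDK2*-4, the most abundant of the 12 and at percentile 99.6 of all sgRNAs at day 0, had a normalized count of 4355 at day 0, 4280 and 3759 on day 10, 3999 and 3785 on day 20 and 2747 and 3804 on day 30. Its LFC at day 30 was -0.43 ± 0.33 (mean ± SD, n = 2) and rested on replicate 1, since replicate 2 lay within the day 20 range, and without day 30 replicate 1 it was -0.20. *CDK2*-2, at percentile 98.6, had 3641 normalized counts at day 0 and between 3301 and 3502 in all 6 later libraries. Its LFC at day 30 was -0.10 ± 0.06 with a 95% interval from -0.43 to 0.24, the narrowest interval of the 12 at day 30. *CDK2*-1 had 1121 at day 0 and from 893.2 to 1105 later, with an LFC at day 30 of -0.22 ± 0.07 (95% interval -0.84 to 0.40). The adjusted p of these sgRNAs at day 30 was 0.419, 0.807 and 0.763 (limma), and 144, 365 and 263 of 1000 NT sgRNAs had a lower mean.

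The *CDK5* sgRNAs gave no common direction at day 30. *CDK5*-1 had a normalized count of 1052 at day 0, 802.1 and 1128 on day 10, 966.8 and 1321 on day 20 and 928.9 and 1065 on day 30. *CDK5*-2 had 1361 at day 0, 1170 and 1274 on day 10, 1008 and 1384 on day 20 and 999 and 1537 on day 30. For both sgRNAs replicate 2 was above replicate 1 on each day, and replicate 2 of day 30 was above day 0. *CDK5*-4 had 2225 at day 0, 1910 and 2214 on day 10, 2107 and 1964 on day 20 and 2619 and 2336 on day 30, where both libraries were above day 0.

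*CDK5*-3 differed most between replicates. Its normalized count was 1130 at day 0, 808.8 and 1046 on day 10, 908.7 and 947.3 on day 20 and 526.1 and 1139 on day 30. One day 30 library was thus the lowest of the 7 for this sgRNA and the other was at the day 0 level, with LFCs of -1.10 and 0.01. The difference between them, 1.11 on the log2 scale, was 14.3 standard errors of counting and lay at percentile 98.14 among all sgRNAs. The mean LFC at day 30 was -0.55 ± 0.79 (SD, n = 2), with a 95% interval from -1.57 to 0.48.

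The mean LFCs of the other *CDK5* sgRNAs at day 30 were -0.08 ± 0.14 for *CDK5*-1, -0.14 ± 0.44 for *CDK5*-2 and 0.15 ± 0.12 for *CDK5*-4 (SD, n = 2). Their 95% intervals ran from -0.84 to 0.68, from -0.90 to 0.62 and from -0.30 to 0.60. None of these reached an LFC of -1, and the interval of *CDK5*-3 included it. All of them rest on 1 spread per sgRNA pooled over days. The SD of the NT sgRNAs, however, was 0.23 at day 10 and 0.41 at day 30. The day 30 intervals may thus be too narrow, and an LFC of -1 is not excluded for these sgRNAs. The adjusted p of the 4 sgRNAs lay between 0.635 and 0.942 (limma).

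The time course was also compared among the 12. At day 10, the LFC of all 12 was below 0, from -0.57 for *CDK6*-1 to -0.09 for *CDK2*-2, whereas 49.8% of all sgRNAs and 45.3% of the NT sgRNAs were below 0. None of the 12 was lower than day 0 at an unadjusted limma p under 0.05 on day 10, against 0.342% of all sgRNAs, nor on day 20, against 0.881%. With the replicate number as a block, *CDK6*-1 was lower on day 10, against 1.44% of all sgRNAs, and *CDK6*-1, *CDK6*-4 and *CDK2*-3 on day 20, against 3.11%. *CDK6*-4 and *CDK2*-3 were also lower on day 20 when either day 30 library was left out, against 2.95% and 2.94% of all sgRNAs. After adjustment none of all sgRNAs passed on either day (0% on day 10, when 127 had an unadjusted p under 0.05 in either direction, and 0% on day 20, when 253 did). The 3 comparisons with day 0 share its 1 library, so a deviation of a single sgRNA in that library enters all of them. All 8 *CDK2* and *CDK6* sgRNAs were below day 0 in all 6 later libraries, which held for 17.1% of all sgRNAs and 15.1% of the NT sgRNAs. For *CDK2*-1 and *CDK2*-4, day 10 replicate 1 was only just below, at an LFC of -0.02. The standard error of counting was 0.062 and 0.031 for these at day 10. Of the 6 libraries, *CDK5*-1 was below day 0 in 3, *CDK5*-2 in 4, *CDK5*-3 in 5 and *CDK5*-4 in 4.

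The comparison of day 30 with day 10 does not use the day 0 library. Its LFC was -0.69 for *CDK6*-4, -0.63 for *CDK6*-2, -0.58 for *CDK2*-3 and -0.53 for *CDK6*-1. *CDK6*-4 and *CDK2*-3 were lower at an unadjusted limma p under 0.05, against 5.08% of all sgRNAs, with adjusted p of 0.394 and 0.413. With the replicate block all 4 of these sgRNAs were, against 10.2% of all sgRNAs, and without day 10 replicate 1 none was, against 1.20%. None of all sgRNAs (0%) passed after adjustment, when 984 had an unadjusted p under 0.05 in either direction. The 95% interval was -1.16 to -0.23 for *CDK6*-4, -1.08 to -0.08 for *CDK2*-3, -1.29 to 0.03 for *CDK6*-2 and -1.37 to 0.30 for *CDK6*-1. Among the others, *CDK6*-3 was at 0.00 and *CDK5*-4 at 0.27. Of these 4, *CDK6*-1 and *CDK2*-3 were already at -0.57 and -0.49 over day 0 at day 10, whereas *CDK6*-4 and *CDK6*-2 stood at -0.26.

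Taken by gene, the median LFC over 4 sgRNAs was -0.27, -0.49 and -0.92 for *CDK6* at days 10, 20 and 30. It was -0.12, -0.22 and -0.32 for *CDK2* and -0.15, -0.17 and -0.11 for *CDK5*. For all sgRNAs the median was 0.00 on each day, and for the NT sgRNAs it was 0.02, 0.03 and 0.02. In the separate day 30 libraries the *CDK6* median was -0.86 and -0.88, so that both libraries gave nearly the same value, while *CDK2* was at -0.47 and -0.18 and *CDK5* at -0.31 and 0.04. The order at day 30, *CDK6* lowest, then *CDK2*, then *CDK5*, was the same in both libraries, and the difference between *CDK2* and *CDK5* was smaller than that between the libraries of either gene. Over the 12 sgRNAs the median at day 30 was -0.35, and 11 of 12 were below 0 against 50.3% of all sgRNAs. Without day 30 replicate 1 the median was -0.18 and 8 of 12 were below 0, against 49.7% of all sgRNAs, with all 4 *CDK5* sgRNAs above 0. Without day 30 replicate 2 the median was -0.56 and 11 of 12 were below 0, against 49.4% of all sgRNAs. At day 20 the 12 had a median of -0.24.

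The NT sgRNAs, for which no change in growth by an edit is intended, widened with time. The SD of their mean LFC was 0.23 at day 10, 0.26 at day 20 and 0.41 at day 30, when 5% lay below -0.64 and 1% below -0.98. *CDK6*-1 and *CDK2*-3 were beyond the lowest 1% of this spread, *CDK6*-4 and *CDK6*-2 were between its 1% and 5% limits, and the other 8 sgRNAs were inside the 5% limit.

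The library holds other kinases of the family, *CDK8*, a subunit of the kinase module of Mediator, and *CDK9*, the kinase of the elongation factor P-TEFb. Their 8 sgRNAs had a median LFC of -0.08, -0.24 and -0.35 at days 10, 20 and 30, and a range from -1.50 to 0.32 at day 30. The likeness of genes was measured as the root mean square difference of the mean LFC over the 6 later A549 libraries, between each of the 3 genes and 14 other genes or control loci. The one nearest to *CDK6* was *CDK9*, at 0.120. Next came *BAP1*, not a kinase of the family, at 0.160, whereas *CDK8* was at 0.536. The mean LFC over the sgRNAs at day 30 was -0.77 and -0.85 for *CDK6* and -0.73 and -0.66 for *CDK9*. The one nearest to *CDK5* was *AKT1*, at 0.187. *CDK2* was nearest to AAVS1, at 0.089, a site used as a neutral control because its disruption is tolerated. The 3 AAVS1 sgRNAs had mean LFCs of -0.40 and -0.51 at day 30, and the *CDK2* sgRNAs -0.51 and -0.40. The *CDK6* mean was lower than the AAVS1 mean in each of the 6 libraries. What lowers the AAVS1 sgRNAs was not tested.

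In the H1 screen, *CDK5*-3 was less abundant in CXCR4+ than in CXCR4- cells and *CDK2*-1 was more abundant, and none of the other 10 sgRNAs met the criteria used here, a one-sided limma p under 0.05 and a median LFC beyond 0.58 in size. Both thresholds are those of the study, which took its p from MAGeCK, so the calls are not those of its test. All 12 passed the filter of a mean of at least 200 in both populations, as did 9044 of 9077 sgRNAs. Enrichment in CXCR4- cells was thus called for 1 of the 12, against 1.74% of all sgRNAs tested and 2.21% of the NT sgRNAs. Enrichment in CXCR4+ cells was called for 1 of the 12, against 2.05% of all sgRNAs tested and 1.3% of the NT sgRNAs. After adjustment over all sgRNAs none passed (0%; 340 had an unadjusted two-sided p under 0.05), and the limma adjusted p was 1 for each of the 12. With the screen as a block 3 sgRNAs passed, none of them among the 12. The other sgRNAs of these genes did not share one direction.

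*CDK5*-3 had normalized counts of 530.0, 843 and 638 in the CXCR4- libraries of screens 1, 2 and 3, and of 386, 255 and 407 in the CXCR4+ libraries. The groups did not overlap, with CXCR4+ lower, which held for 1 of the 12 and for 4.48% of all sgRNAs tested. The LFC of CXCR4+ over CXCR4- was -0.46, -1.72 and -0.65, with a median of -0.65 ± 0.68 (SD, n = 3), and 26 of 997 NT sgRNAs were lower. The mean LFC from limma was -0.94 with a 95% interval from -1.77 to -0.12. Without screen 2 the median was -0.55, short of the criterion. *CDK5*-3 was at percentile 7.44 of mean abundance in the H1 libraries, and the other *CDK5* sgRNAs had median LFCs of 0.30, -0.01 and -0.11.

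*CDK2*-1 had normalized counts of 331, 237 and 652 in the CXCR4- libraries and of 511, 753 and 674 in the CXCR4+ libraries. The groups overlapped, because the CXCR4- library of screen 3 was above the CXCR4+ library of screen 1. No sgRNA of the 12 was higher in all CXCR4+ than in all CXCR4- libraries, against 4.40% of all sgRNAs tested. The LFC of *CDK2*-1 was 0.63, 1.67 and 0.05, with a median of 0.63 ± 0.82 (SD, n = 3) and a 95% interval of the mean from -0.08 to 1.64 (limma). It did not meet the criteria without screen 1, when the median was 0.86, or without screen 2, when it was 0.34. Its counts in CXCR4- cells differed by 2.76 times between the highest and the lowest screen, against a median of 1.54 over all sgRNAs. It was at percentile 8.27 of mean abundance, and the other *CDK2* sgRNAs had median LFCs of -0.39, 0.01 and 0.12.

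*CDK6*-4, one of the 4 sgRNAs lowest in A549, was also lower in CXCR4+ cells in each H1 screen. Its normalized counts were 1484, 1603 and 1197 in CXCR4- and 1054, 1326 and 933 in CXCR4+ libraries, which overlap. The LFC was -0.49, -0.27 and -0.36, with a median of -0.36 ± 0.11 (SD, n = 3), 95% interval of the mean -0.87 to 0.12 (limma) and 116 of 997 NT sgRNAs lower. *CDK2*-4 was higher in each screen by at most 0.12. With these, 4 of the 12 had the same sign in all 3 screens, against 25.0% of all sgRNAs.

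*CDK6*-1 had normalized counts of 1666, 627 and 857 in CXCR4- and of 871, 1275 and 826 in CXCR4+ libraries. Screens 1 and 2 gave opposite directions, with LFCs of -0.93 and 1.02, and screen 3 gave -0.05. *CDK5*-1 likewise had LFCs of -0.77, 1.04 and 0.30. *CDK6*-2 had 1131, 855 and 814 in CXCR4- and 923, 847 and 1228 in CXCR4+ libraries, with a median LFC of -0.01 ± 0.45 (SD, n = 3). *CDK6*-3 had 652, 732 and 927 against 959, 930.0 and 831, with a median LFC of 0.35 ± 0.37. The groups overlapped for both, and neither kept its sign over the screens. *CDK2*-3, at 0.474 of its day 0 level in A549 at day 30, had H1 values of 1427, 1347 and 696 in CXCR4- and 1117, 1442 and 699 in CXCR4+ libraries, and a median LFC of 0.01 ± 0.24. The 95% interval of its mean LFC ran from -0.69 to 0.53 (limma). The abundant *CDK2*-2 had 1713, 2592 and 3069 against 2312, 1624 and 2349, with a median LFC of -0.39 ± 0.57 (SD, n = 3) that came from screens 2 and 3. Of the other *CDK5* sgRNAs, *CDK5*-2 gave 735, 814 and 434 against 609, 806 and 535, with a median LFC of -0.01 ± 0.29. *CDK5*-4 gave 1163, 1305 and 960.0 against 1078, 871 and 1309, with a median LFC of -0.11 ± 0.52, and neither kept its sign.

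By gene, the median over 4 sgRNAs of the LFC of CXCR4+ over CXCR4- was 0.06 for *CDK2*, -0.06 for *CDK5* and -0.03 for *CDK6*. It was -0.01 for the 12, -0.02 for the NT sgRNAs and 0.00 for all sgRNAs tested. In the single screens the *CDK6* median was -0.39, 0.17 and -0.10 and the *CDK5* median -0.36, -0.30 and 0.30, so neither gene kept a sign over the 3 screens. The *CDK2* median was 0.28, 0.06 and 0.03. The order of *CDK6*, *CDK2* and *CDK5* in A549 and these medians come from different editors, cell types and readouts, and no test was run between the screens.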

How the data were processed

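sgRNA libraries were amplified from genomic DNA of 7 A549 and 6 sorted H1 samples, grouped by their labels. According to the methods, the authors used Cutadapt for trimming and MAGeCK for counting reads per sgRNA, followed by normalization. CASAVA 1.4 is also named in the submitters' processing notes, with no version for the other tools. The deposited values, 1 table per screen, were used as a signal per sgRNA, a read count times 1 factor of the library. Every value of a library was a whole multiple of 1 read within 0.05 reads, which gave the depths. No pair of libraries of 1 group agreed within counting noise.

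LFCs used a pseudocount of 1. Every sgRNA was fitted on log2 values with limma 3.58.1 in R 4.3.3 (lmFit, eBayes with a variance trend), two-sided unless stated, over all 7 A549 libraries with day as a factor, or the 6 H1 libraries with population as a factor. The study's p in H1 came from MAGeCK, in place of which limma was used. P-values were adjusted by Benjamini-Hochberg over 9077 or 9044 sgRNAs. In H1, 33 sgRNAs with a mean under 200 in a population were left out. The study calls both A549 samples of a day biologically independent, and does not say in which step they were separated. Members, lists and tests were chosen with earlier results of these data known. All 12 sgRNAs are named, and likeness is given for the nearest of 14 genes or loci, and for *CDK6* also for *BAP1* and *CDK8*. The fits were tested on simulated data with independent noise of the same size in every library of a screen. In the A549 data the spread grew with day and libraries of the same number deviated together, which this test did not cover. Gene models are from GENCODE on GRCh37. Other steps used Python 3.11.15, numpy 2.4.6 and pandas 2.3.3.

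Both libraries of an H1 screen came from 1 infected culture according to the methods. That the replicate numbers of the labels are the screen numbers was assumed here, and all LFCs of single H1 screens rest on it. After subtraction of each population's mean, libraries of the same number correlated at 0.082, 0.065 and 0.287, and libraries of different numbers at 0.108 or less. Crossed pairs of numbers 1 and 2 correlated at 0.084 and 0.108, so these values do not settle the pairing of screens 1 and 2. In A549 the difference between replicates at day 10 correlated at 0.570 with that at day 20 and at 0.394 with that at day 30, and the latter 2 days correlated at 0.636. The alternatives were other pseudocounts, scalings, filters and variance models, a replicate block, a linear trend over day, and leaving out each library or screen.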

Additional observations from a re-analysis of the deposited data

How the results depend on the processing

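The A549 libraries limit the result, since day 0 is a single library. With the replicate block, the count of members lower at an unadjusted p under 0.05 was 1 at day 10, 3 at day 20 and 4 at day 30 over day 10, while the share of all sgRNAs went from 0.342% to 1.44%, from 0.881% to 3.11% and from 5.08% to 10.2%. At day 30 the block left no member past an adjusted p of 0.05 (0.0501 for *CDK2*-3, *CDK6*-1 and *CDK6*-4), and called 44 sgRNAs lower and 132 higher, 25 of them NT. Day 0 has no partner in this block. In H1 the screen block changed no call among the members, and called 3 other sgRNAs at an adjusted p under 0.05 (2 lower, 1 higher) against 0 without it. Rescaled to the same NT median, the median LFC of the members at day 10 was -0.24. At day 20, 1 member (*CDK6*-4) was lower at an unadjusted limma p under 0.05, against 1.26% of all sgRNAs. At day 30, 5 members were lower in this way and 3 were below -1, against 7.18% and 1.78% of all sgRNAs. That scaling gave 0.03 for both *CDK5*-2 and *CDK6*-2 in H1, and the same total gave 0.00 and 0.01. The linear trend left 1 member below -1, with 1.27% of all sgRNAs, and gave 0.02 for *CDK5*-1. It called 1 member at an adjusted limma p under 0.05, with 47 of all sgRNAs lower and 105 higher. The mean in place of the median in H1 gave -0.08 for *CDK2*-3, 0.01 for *CDK5*-2 and *CDK6*-1, and 0.10 for *CDK6*-2. These H1 values lie near 0.

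Leaving out 1 library or screen at a time, the median LFC of the members at day 10 was -0.20 to -0.19, the median at day 30 was -0.56 to -0.18, the count below -1 at day 20 was 0 to 1 (*CDK6*-1 without day 20 replicate 1, with 0.386% of all sgRNAs against 0.165%), and the count lower at day 30 over day 10 was 0 to 4. That share of all sgRNAs was 1.20% without day 10 replicate 1 (count 0) and 10.9% without day 30 replicate 2 (count 4). The day 30 LFC was -0.18 to 0.02 for *CDK5*-1, -0.45 to 0.17 for *CDK5*-2 and -1.10 to 0.01 for *CDK5*-3. The 2 members below -1 without day 30 replicate 2 were *CDK5*-3 and *CDK6*-2 (-1.01), not those of both libraries. The share of all sgRNAs below -1 was then 3.05%, against 1.52% with both libraries. H1 calls numbered 0 to 1 in each direction. H1 LFCs were -0.53 to 0.02 for *CDK2*-2, -0.17 to 0.05 for *CDK2*-3, -0.23 to 0.67 for *CDK5*-1, -0.14 to 0.14 for *CDK5*-2, -0.35 to 0.17 for *CDK5*-4, -0.49 to 0.48 for *CDK6*-1 and -0.15 to 0.29 for *CDK6*-2. Over 14 alternatives the day 30 LFC stayed negative for *CDK2*-3, *CDK6*-1, *CDK6*-2 and *CDK6*-4, at most -0.77, with adjusted p from 0.0373 to 0.609. The cause of these changes was not tested. Tests on whole reads with edgeR and DESeq2 were not run.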
